A study of Mus musculus with 8 samples.

Results

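The transcripts of 10 genes of the endoplasmic reticulum (ER) folding and stress machinery were examined in livers of *Agpat3* WT and *Agpat3* KO mice. They were the chaperones *Hspa5*, *Hsp90b1*, *Calr* and *Pdia4*, the cochaperones and degradation factors *Sdf2l1*, *Dnajb9* and *Herpud1*, and the sensors *Ern1* and *Atf6* with the transcription factor *Xbp1*. They were taken by name, through the RefSeq transcript of each array probe. The 10 genes had 16 probes out of 32994 that could be given a gene symbol, and all 16 were well above background on all 8 arrays. The whole array held 56605 probes, of which 29067 passed the filter on dim probes and were tested, covering 14065 genes.

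The animals were 10-week-old male C57BL/6 mice, 4 WT and 4 carrying a global deletion of *Agpat3*, the acyltransferase that builds docosahexaenoic acid into phospholipids. Liver RNA of each mouse was labeled with Cy3 and hybridized to its own one-color Agilent array. Each mouse is named here by its genotype and its replicate number. The median spot background fell with that number in both genotypes (32, 30, 29 and 27 in WT, 31, 29, 28 and 27 in KO). The part of this gradient in the levels was not tested. Whether WT and KO mice were littermates, and whether they were fed or fasted at sampling, is not given in the sources used here. All 8 arrays were on 1 slide and in 1 scan, but every WT array was in row 1 of the slide and every KO array in row 2, and these cannot be told apart. Probes well above background numbered between 29885 and 31886 per array. The targeted gene, *Agpat3*, was between 5.65 and 5.88 in WT and between -0.58 and 0.02 in KO, apart in every mouse as labeled (limma log2 fold change -6.12, SE 0.14, adjusted p = 4.46e-07). Here and below a level is a log2 background-corrected intensity minus the log2 of its array's 75th percentile, a difference is KO minus WT on that scale, and one probe's level is not comparable with that of another.

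Proteins that enter the secretory pathway are folded in the ER, and hepatocytes, which secrete most plasma proteins, carry a large load of them. BiP, the product of *Hspa5*, holds unfolded chains and also keeps the sensors IRE1 (*Ern1*), ATF6 and PERK inactive. When unfolded protein accumulates, IRE1 splices *Xbp1* mRNA, ATF6 is cleaved to a transcription factor, PERK slows translation and raises ATF4, and together these arms induce chaperones and degradation factors. Sensor activation thus takes place through protein changes and splicing. The values here are transcript levels, and where the *Xbp1* probes lie relative to the spliced stretch was not analysed here.

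Several of these genes carry the ER stress response element (ERSE) in their promoters, to which NF-Y and ATF6 or XBP1 bind. The proximal promoters that hold such an element are shown so that the letters can be read beside the values below. RefSeq promoter windows of GRCm38.p6, from 250 bases before to 50 after the start, matched 9 of the 10 genes. ERSE was searched on both strands as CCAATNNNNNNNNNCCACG, ERSE-II as ATTGGNCCACG and the unfolded protein response element (UPRE) as TGACGTGG, and no matches in these promoters overlapped. In the sequences, printed 5′ to 3′ on the strand of the gene, capitals mark an ERSE or, in *Herpud1*, ERSE-II.
Hspa5 (chr2:34771995-34772073, + strand): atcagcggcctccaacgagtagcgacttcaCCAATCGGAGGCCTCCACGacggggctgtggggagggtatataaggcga
Hsp90b1 (chr10:86705503-86705686, - strand): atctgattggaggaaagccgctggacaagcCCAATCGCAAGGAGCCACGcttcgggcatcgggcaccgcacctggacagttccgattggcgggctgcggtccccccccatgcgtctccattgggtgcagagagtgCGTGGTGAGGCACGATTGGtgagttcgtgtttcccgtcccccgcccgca
Calr (chr8:84847045-84847123, - strand): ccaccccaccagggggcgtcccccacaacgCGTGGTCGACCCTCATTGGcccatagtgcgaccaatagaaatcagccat
Herpud1 (chr8:94386347-94386417, + strand): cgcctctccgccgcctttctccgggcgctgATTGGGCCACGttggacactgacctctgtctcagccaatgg

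ERSE was present in 3 of the 9 promoters, those of *Hspa5*, *Hsp90b1* and *Calr*, compared with 39 of all 32851 promoter windows (0.119%). *Hsp90b1* held 2 copies, the one nearer the start in the reverse orientation, and the copy of *Calr* was also reversed. In *Hspa5* the element began 65 bases before the start. ERSE-II was present in *Herpud1*, beginning 52 bases before the start, and in 12 of 32851 windows (0.0365%). UPRE letters were found in none of the 9 windows and in 0.676% of all windows. A match to these letters is a description of the window and does not show that a factor binds there, nor does a lack of one show the opposite.

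None of the 10 genes was called changed between the genotypes. Calls required a fold change over 1.5 and a Benjamini-Hochberg adjusted p under 0.2 in limma, thresholds at which 1.76% of all tested genes were called, 1.01% higher and 0.754% lower in KO. At an unadjusted p under 0.05 stood 1 of the 10, *Herpud1*, where 14.0% of all genes did (5.70% higher and 8.25% lower in KO). The KO values lay wholly outside the WT range for none of the 10, compared with 9.73% of all genes. The fitted difference was below 0 for 8 of the 10, and their median was -0.10, but 58.0% of all genes also lay below 0, with a median of -0.03. The 95% interval of the difference included 0 for 9 genes. It stayed within a 1.5-fold change in both directions for 5 of the 10 (*Hsp90b1*, *Calr*, *Pdia4*, *Ern1* and *Atf6*), while the intervals of *Hspa5*, *Sdf2l1*, *Dnajb9*, *Herpud1* and *Xbp1* reached beyond it.

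**Figure D1:**
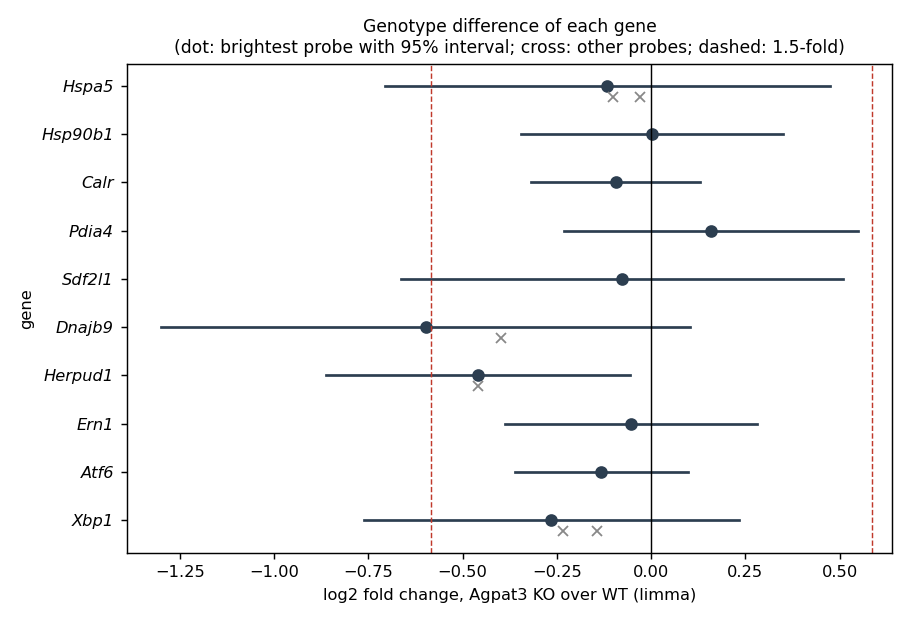
Log2 fold change of *Agpat3* KO over WT (horizontal axis) for each gene. Dots are the brightest probe with its 95% interval from limma, crosses are the other probes of the gene, and dashed lines mark a 1.5-fold change. The interval of *Herpud1* (-0.86 to -0.06) was the one that did not include 0.

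Among the chaperones, *Hspa5* encodes BiP, the main Hsp70 of the ER lumen. In WT it stood at 8.0, 8.11, 7.89 and 7.25 in replicates 1 to 4, and in KO at 7.45, 7.71, 8.32 and 7.30. The groups overlapped almost entirely, the highest value being KO replicate 3 and the lowest WT replicate 4. The means were 7.81 ± 0.38 in WT and 7.70 ± 0.45 in KO (SD, n = 4 each), a limma difference of -0.12 (95% interval -0.70 to 0.47, adjusted p = 0.887), which corresponds to 0.923-fold with an interval of 0.614 to 1.39. The other two *Hspa5* probes gave -0.10 and -0.03.

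*Hsp90b1* encodes GRP94, the Hsp90 of the ER. It measured 8.03, 8.05, 7.85 and 7.83 in WT and 7.80, 8.10, 8.29 and 7.58 in KO. Both the highest and the lowest of the 8 values were KO mice, and the means coincided at 7.94, with an SD of 0.12 in WT and 0.31 in KO (limma difference 0.00, 95% interval -0.35 to 0.35, adjusted p = 0.997).

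*Calr* encodes calreticulin, a lectin chaperone that binds glycoproteins and calcium. Its levels were 6.35, 6.23, 6.09 and 6.11 in WT and 6.11, 6.17, 6.23 and 5.89 in KO. KO replicate 4 was the lowest and WT replicate 1 the highest, and the groups overlapped. The difference was -0.09 (95% interval -0.32 to 0.13, limma adjusted p = 0.736).

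*Pdia4* encodes ERp72, a protein disulfide isomerase. It stood at 3.27, 3.49, 3.08 and 3.05 in WT and at 3.23, 3.48, 3.78 and 3.03 in KO. KO replicate 3 was again the highest, and the other 3 KO values lay within or just under the WT range. The difference was 0.16 (95% interval -0.23 to 0.55, limma adjusted p = 0.746).

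Of the cochaperones, *Sdf2l1* encodes a lumenal partner of BiP and its J proteins. It measured 3.90, 3.99, 3.63 and 3.34 in WT and 3.44, 3.71, 4.30 and 3.09 in KO. KO replicates 3 and 4 were the highest and the lowest of the 8 livers, and the difference was -0.08 (95% interval -0.66 to 0.51, limma adjusted p = 0.925).

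*Dnajb9* encodes ERdj4, a J protein that recruits BiP to IRE1 and is itself an XBP1 target. It stood at 3.84, 3.64, 3.96 and 2.63 in WT and at 2.85, 2.75, 3.45 and 2.62 in KO. Replicates 1 to 3 of WT were above every KO value, while WT replicate 4 was as low as the lowest KO liver. The fitted difference of -0.60 was the largest in size among the 10 genes (95% interval -1.30 to 0.10), with a limma adjusted p of 0.456 and an exact permutation p of 0.143. It depended on that liver: without WT replicate 4 the difference was -0.89 and the gene was called (limma adjusted p = 0.133). The other *Dnajb9* probe gave -0.40 (limma adjusted p = 0.693).

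*Herpud1* encodes HERP, a membrane protein that organizes ER-associated degradation. Its levels were 6.25, 5.98, 6.51 and 5.88 in WT and 5.54, 5.70, 5.47 and 6.08 in KO. Among the KO livers 3 were below all WT livers, and KO replicate 4 lay within the WT range. The means were 6.16 ± 0.28 in WT and 5.70 ± 0.27 in KO (SD, n = 4 each). The difference of -0.46 (SE 0.18, 0.727-fold) had an unadjusted limma p of 0.030, an adjusted p of 0.314 and an exact permutation p of 0.086, so that it did not pass the test. Both *Herpud1* probes gave -0.46. The order of the livers was not that of the chaperones: KO replicate 3, the highest liver for *Hspa5*, was the lowest for *Herpud1*.

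Among the sensors, *Ern1*, which encodes the kinase and RNase IRE1, stood at 0.92, 0.24, 0.35 and 0.51 in WT and at 0.52, 0.58, 0.33 and 0.37 in KO. The KO values fell within the WT range in all 4 mice, and WT replicate 1 stood above the rest. The difference was -0.05 (95% interval -0.39 to 0.28, limma adjusted p = 0.911).

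*Atf6*, the membrane-bound transcription factor, measured 2.05, 2.24, 2.27 and 2.17 in WT and 1.85, 2.05, 2.27 and 2.03 in KO. KO replicate 1 was the lowest, and WT and KO replicate 3 were level at the top. The difference was -0.13 (95% interval -0.36 to 0.10, limma adjusted p = 0.629).

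*Xbp1*, the transcription factor whose mRNA IRE1 splices, stood at 7.86, 7.34, 7.25 and 6.88 in WT and at 7.35, 7.14, 7.09 and 6.67 in KO. The groups overlapped, with WT replicate 1 at the top and KO replicate 4 at the bottom. In both genotypes the level fell in the order of the replicate numbers, as the spot background did. The difference was -0.26 (95% interval -0.76 to 0.23, limma adjusted p = 0.658), and the other *Xbp1* probes gave -0.23 and -0.14.

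**Figure D2:**
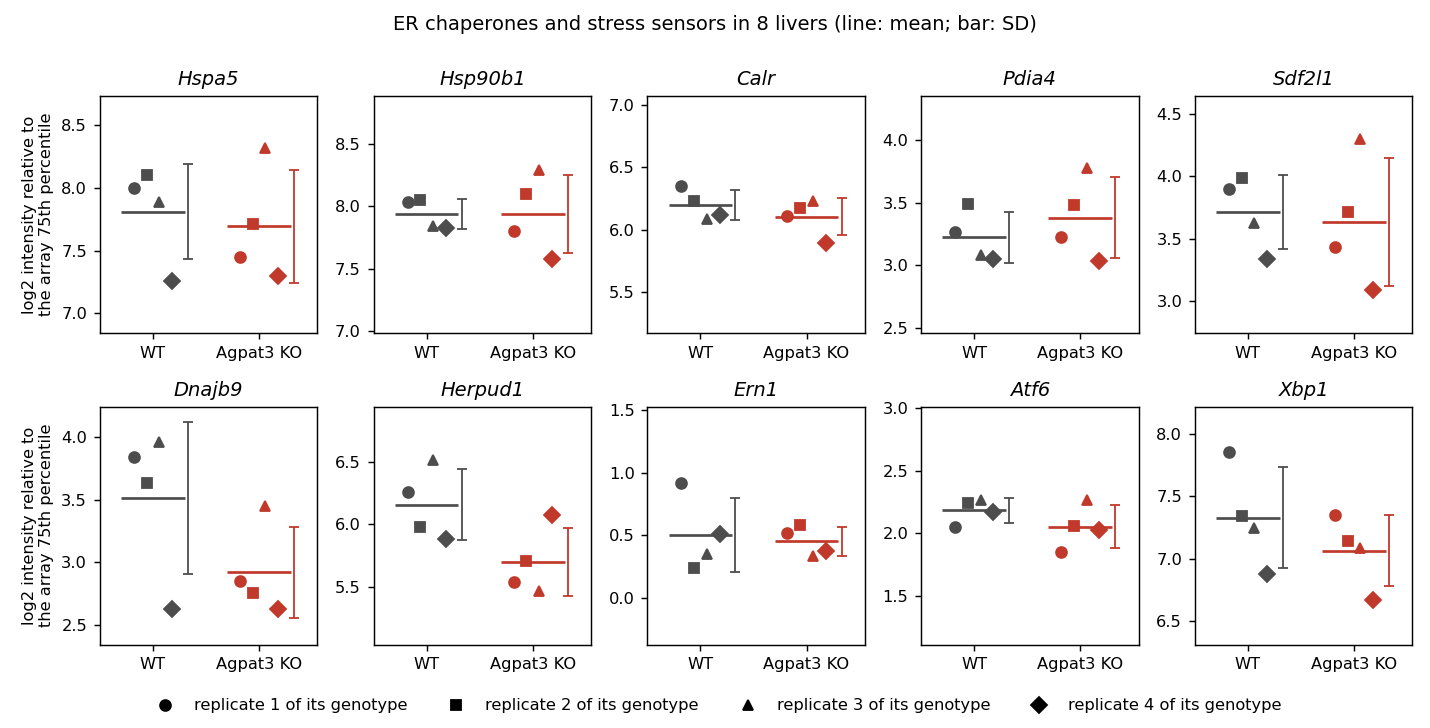
Level of each gene in each liver (vertical axis, log2 intensity of the brightest probe scaled to its array's 75th percentile, all panels spanning the same log2 width), WT in gray and *Agpat3* KO in red. Horizontal lines are means, bars are SD, and marker shapes give the replicate number, which was not taken to link a WT to a KO mouse. WT and KO values overlapped for every gene, and KO replicate 3 was the highest of the 8 livers for 5 of the 10.

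The genes varied more from mouse to mouse than most transcripts did. The SD within genotypes had a median of 0.27 over the 10 genes and 0.17 over all tested probes, and 8 of the 10 lay above that overall median. Among the 2000 probes nearest in signal, *Dnajb9* stood at percentile 98.4 of this SD, *Hspa5* at 96.2 and *Sdf2l1* at 96.0. *Calr* and *Atf6* were the steadiest, with SD of 0.14 each. Over the 8 livers the highest and the lowest level of *Dnajb9* were 2.53-fold apart, those of *Sdf2l1* 2.30-fold and those of *Hspa5* 2.10-fold.

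The same livers were high or low for several genes at once. Above its own mean over the 8 livers stood 9 of the 10 genes in WT replicate 2, 8 in WT replicate 1 and 7 in KO replicate 3. Below it stood 9 in KO replicate 4 and 8 each in WT replicate 4 and KO replicate 1. High and low livers were thus found in both genotypes. WT replicate 3 and KO replicate 2 were divided, with 5 genes on each side. Replicate 4 of both genotypes, low for 8 and 9 genes, also had the lowest median spot background (27 each). KO replicate 1, which was low too, had a background of 31, and KO replicate 3, which was high, one of 28. The part of the array in this pattern was not tested.

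**Figure D3:**
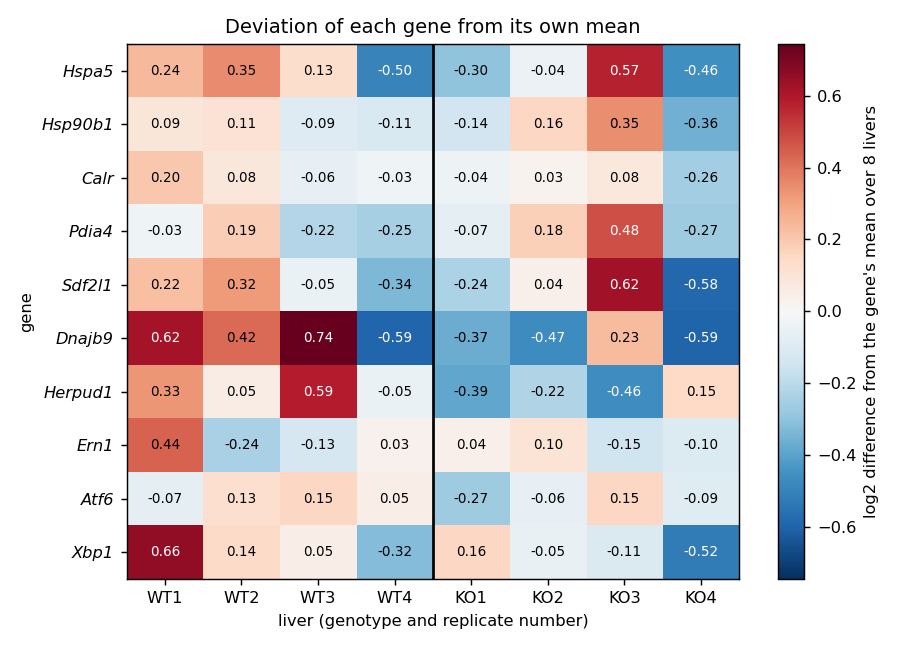
Difference of each gene (rows) in each liver (columns) from its own mean over the 8 livers, in log2 units, red above and blue below. The vertical line separates WT from KO. KO replicate 3 was above the mean for *Hspa5* (0.57) and below it for *Herpud1* (-0.46).

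*Sdf2l1* followed *Hspa5* most closely across the 8 mice, with Pearson's r = 0.96 (exact permutation p adjusted over the 9 genes compared = 0.0029) and Spearman's rho = 0.95 (adjusted exact permutation p = 0.0103). Without the 2 mice farthest from the median of *Hspa5*, WT replicate 4 and KO replicate 3, r was still 0.95. *Hsp90b1* gave r = 0.84 (adjusted exact permutation p = 0.0439) and rho = 0.79 (adjusted exact permutation p = 0.0838). Without the same 2 mice its r was 0.79, with an unadjusted exact permutation p of 0.0639. *Sdf2l1* and *Hsp90b1* were the 2 of 9 genes whose r passed an adjusted p of 0.05, and leaving out any one mouse left between 1 and 3 genes, with 1 without WT replicate 1, WT replicate 2, KO replicate 1, KO replicate 3 or KO replicate 4.

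The next genes in the order were *Dnajb9* with r = 0.79 and *Pdia4* with r = 0.78 (adjusted exact permutation p = 0.0726 each). Their rho were 0.71 and 0.86 (adjusted exact permutation p = 0.130 and 0.0482). For *Pdia4* r fell to 0.53 without the 2 mice, so that its relation to *Hspa5* rested partly on them, while for *Dnajb9* it was 0.85. When each mouse was expressed as its deviation from the mean of its genotype, r was 0.89 for *Pdia4* and 0.87 for *Dnajb9*, and 4 genes passed. The permutation of these deviations did not allow for the centring within genotypes, so that count is approximate. *Calr* followed at r = 0.70 and rho = 0.67 (adjusted exact permutation p = 0.0809 and 0.150), with r = 0.80 without the 2 mice.

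*Atf6* (r = 0.58, rho = 0.60) and *Xbp1* (r = 0.53, rho = 0.43) did not pass, with adjusted exact permutation p for r of 0.196 and 0.231. *Herpud1* had r = -0.00 and rho = -0.07 with *Hspa5* (adjusted exact permutation p = 0.990 and 0.882), and *Ern1* had r = -0.11 and rho = -0.40 (adjusted exact permutation p = 0.920 and 0.368). Without the 2 mice r was 0.70 for *Atf6*, 0.69 for *Xbp1*, 0.43 for *Herpud1* and 0.10 for *Ern1*. With 4 mice per genotype no coefficient was computed within a genotype. Different probes of the same gene followed each other at r of 0.93 to 0.99, which is the closeness that 2 probes of 1 transcript reached on these arrays.

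**Figure D4:**
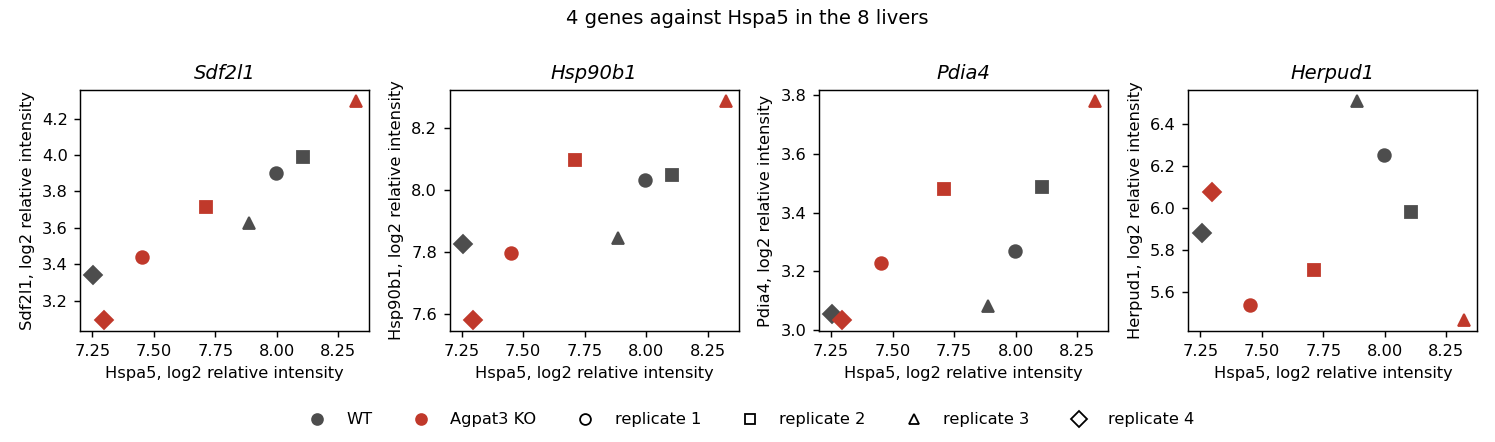
Levels of *Sdf2l1*, *Hsp90b1*, *Pdia4* and *Herpud1* (vertical axes) against *Hspa5* (horizontal axes) in the 8 livers, all as log2 intensity scaled to each array's 75th percentile, WT in gray and *Agpat3* KO in red, with marker shapes for replicate numbers. *Sdf2l1* followed *Hspa5* over both genotypes (r = 0.96), and *Herpud1* did not (r = -0.00).

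Among 14055 other genes, those whose levels were most like *Hspa5* over the 8 mice were *Aopep*, *Syvn1*, *Slc31a1*, *Cdk2ap2* and *Gmppb*, with r between 0.96 and 0.97. This order is a description of 8 libraries that share one scaling. *Syvn1* encodes HRD1, the ubiquitin ligase of ER-associated degradation, *Gmppb* an enzyme that makes GDP-mannose, *Slc31a1* a copper transporter and *Aopep* an aminopeptidase. *Syvn1* stood at 7.26, 7.54, 7.35 and 6.03 in WT and at 6.58, 6.74, 7.55 and 6.09 in KO, so that WT replicate 4 and KO replicate 4 were low and KO replicate 3 was high, as for *Hspa5*. In the first 10 genes of the order 4 were on lists of ER folding, degradation, translocation and sensor genes. These were *Syvn1*, *Manf*, *Sel1l* and *Ube2g2*, of which the last 3 were picked out after their values were seen. Genes on these lists were 1 of the first 5, 5 of the first 20 and 6 of the first 50 in the order. Of the 14055 genes 85 (0.605%) were on these lists.

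The ER genes beyond the 10 were divided by role into lists, and r with *Hspa5* was compared with its background, a median of 0.04 over the 14055 genes, of which 15.0% had r above 0.5. Of 17 further chaperones and cochaperones 12 had r above 0.5 (median 0.69). The same held for 11 of 20 ER-associated degradation genes (median 0.56), 15 of 25 translocation and export genes (median 0.60) and 7 of 14 disulfide and prolyl isomerases (median 0.51). Of 9 sensor and signaling genes it held for 1 (median 0.17), and in the PERK and ATF4 arm for 4 of 17 (median -0.08). Genes of the cytosolic heat shock response, which respond to unfolded protein outside the ER, also reached a median of 0.57, with 9 of 14 above 0.5.

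Between the genotypes, 2 of 109 genes on the 7 ER lists were called, both lower in KO and both in the PERK and ATF4 arm (1.83%, against 1.76% of all genes). The median difference over the 109 genes was -0.00. At an unadjusted p under 0.05 stood 8 higher and 10 lower (16.5%, against 14.0% of all genes). No gene of the chaperone, isomerase, degradation, translocation, sensor and IRE1-dependent decay lists was called. At an unadjusted p under 0.05 these lists held 1, 4, 0, 3, 4 and 2 genes, in the same order.

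*Asns*, which encodes asparagine synthetase, an ATF4 target, stood at 0.06, 1.08, 0.52 and 1.21 in WT and at -0.36, -1.72, -1.34 and -1.44 in KO. All KO values were below all WT values, and the difference was -1.94 (SE 0.34, limma adjusted p = 0.067). *Ddit3*, which encodes the stress transcription factor CHOP, stood at -0.11, 0.03, 0.01 and -0.35 in WT and at -0.88, -0.66, -0.48 and -0.79 in KO. Here too the genotypes were apart, with a difference of -0.60 (SE 0.12, limma adjusted p = 0.088), just past the 1.5-fold requirement. The *Ddit3* call was lost without KO replicate 1, KO replicate 4, WT replicate 2 or WT replicate 3, at differences of -0.54, -0.57, -0.55 and -0.56. With all mice it was also lost with the percentile over detected probes (-0.576) and with normexp background correction (-0.49). The same held with no filter on dim probes (limma adjusted p = 0.222). *Atf4* itself, the transcription factor of this arm, had a difference of 0.05 (limma adjusted p = 0.918). *Vldlr*, a lipoprotein receptor, had a difference of 1.00, and *Chac1*, an enzyme that degrades glutathione, one of -0.79, and neither passed (limma adjusted p = 0.456 and 0.260).

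In the sensor list, *Eif2ak3*, which encodes PERK, had a difference of -0.58 (limma adjusted p = 0.203), with 1.22, 1.13, 1.42 and 0.66 in WT and 0.61, 0.25, 0.70 and 0.56 in KO. WT replicate 4 lay among the KO values, and without it the difference was -0.73 (limma adjusted p = 0.088) and the gene was called. It was also called with all mice when arrays were centred on their median (-0.61, limma adjusted p = 0.171). *Creb3l2*, a membrane-bound transcription factor related to ATF6, gave -0.78 (limma adjusted p = 0.278), and -0.97 with a call without the same liver (limma adjusted p = 0.167). *Creb3l1* had a difference of -0.22 (limma adjusted p = 0.430). Of the 9 sensor and signaling genes 8 were fitted below 0, with a median of -0.16, beside 58.0% and -0.03 over all genes.

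In the remaining lists the largest differences did not pass. Among chaperones they were 0.34 for *Hspa13*, -0.17 for *Creld2* and 0.15 for *Cnpy2*, around a list median of 0.01. Among isomerases they were 0.46 for *Fkbp14*, -0.45 for *Txndc11* and 0.30 for *Txndc5* (median 0.03). In ER-associated degradation they were -0.30 for *Syvn1*, -0.15 for *Edem3* and 0.14 for *Edem1* (median -0.07), and in translocation and export 0.26 for *Sec23b*, 0.25 for *Srp54a* and 0.22 for *Ssr1* (median 0.09). Transcripts that IRE1 can cleave had a median of -0.08, with -0.58 for *Col6a1*, -0.45 for *Pdgfrb* and -0.30 for *Pmp22*, and the cytosolic heat shock genes one of -0.09, with -0.37 for *Hspa1b* and 0.33 for *Hspa4l*. In that last list *Hsf1*, the heat shock transcription factor, had KO values below all WT values, with a difference of -0.32 (limma adjusted p = 0.167) that stayed under 1.5-fold. The KO values of *Col6a1*, *Pdgfrb*, *Prkcsh* (-0.07) and *Nploc4* (-0.14) also lay below all WT values. Those of *Cnpy2*, *Ssr1* and *Tram1* (0.22, limma adjusted p = 0.225) lay above all of them. In the 2 lists described before, those of *Mbtps1* (-0.12) and *Mbtps2* (-0.19) lay below and those of *Atf5* (0.24) above. *Prkcsh*, *Nploc4*, *Tram1*, *Mbtps1*, *Mbtps2* and *Atf5* were picked out after their values were seen. Among all genes 9.73% had KO values wholly outside the WT range.

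**Figure D5:**
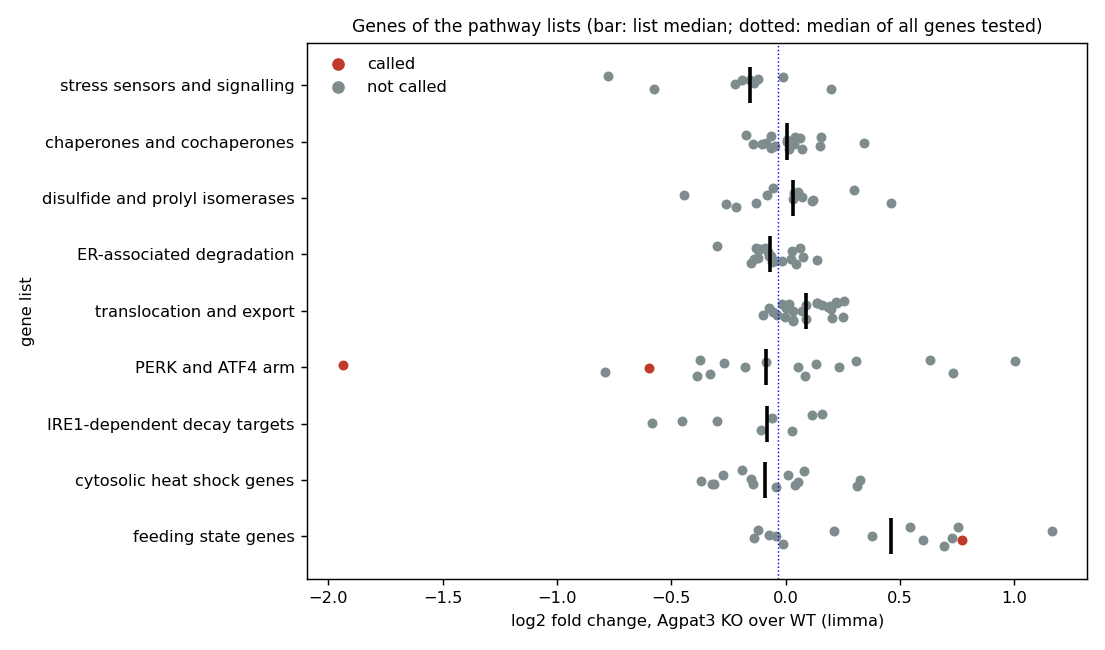
Log2 fold change of *Agpat3* KO over WT (horizontal axis) for each tested gene of the pathway lists (rows), red where called and gray where not. Black bars are list medians and the dotted line is the median of all genes tested (-0.03). The called genes were *Asns* (-1.94) and *Ddit3* (-0.60) in the PERK and ATF4 arm and *Srebf1* (0.77) among the feeding state genes.

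A list of transcripts that follow feeding was also examined, since some varied widely between mice of one genotype. *G6pc*, the glucose-releasing phosphatase that is low after feeding, stood at 6.94, 5.30, 6.44 and 7.02 in WT and at 7.30, 7.37, 5.69 and 7.52 in KO. *Angptl4*, a lipase inhibitor induced by fasting, stood at 6.27, 4.94, 6.41 and 6.77 in WT and at 6.00, 6.43, 4.97 and 6.51 in KO. In each genotype the mouse with the highest *Hspa5*, WT replicate 2 and KO replicate 3, had the lowest *G6pc* and the lowest *Angptl4*. The same held for 5 of the 14 genes on the list (*Pdk4* and *Irs2* among them). Other genes of the list did not show this order. *Pck1* and *Igfbp1*, also raised by fasting, were lowest in WT replicate 1 and KO replicate 1, *Ppargc1a* was highest in KO replicate 3 (1.86), and *Cyp4a10* and *Cyp4a14* were lowest among WT livers in WT replicate 4 (3.90 and -2.88), the lowest liver for *Hspa5*. All these genes were picked out after their values were seen, *G6pc* and *Angptl4* were not called between the genotypes (limma adjusted p = 0.697 and 0.936), and their part in the differences between mice was not tested.

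Of the 14 feeding state genes 1 was called. *Srebf1*, which encodes the lipogenic transcription factor SREBP1, stood at 6.08, 6.72, 6.63 and 6.14 in WT and at 6.89, 6.87, 7.42 and 7.47 in KO. All KO values were above all WT values, with a difference of 0.77 (SE 0.20, limma adjusted p = 0.168), but the call was lost when any single mouse was left out (limma adjusted p between 0.205 and 0.284). With all mice it was also lost with no filter on dim probes (limma adjusted p = 0.377) and with an unpaired t test (adjusted p = 0.269). The list median was 0.46, and the differences of *Cyp4a14* (1.17), *Igfbp1* (0.76) and *Pdk4* (0.73) did not pass (limma adjusted p = 0.457, 0.643 and 0.259).

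In bulk liver RNA, fewer cells of a type and less RNA per cell cannot be told apart. The sums below add intensities of different probes, whose levels are not comparable with each other. Each sum thus follows mainly its brightest probes and does not measure the amount of a cell type. The 10 hepatocyte markers were all tested and none was called, and their summed linear level was 7083 to 7891 times the 75th percentile in WT and 7047 to 7454 in KO. The largest differences were -0.14 for *Fgb*, 0.13 for *Apoa1* and -0.12 for *Cyp2e1*. Plasma cells are also rich in ER chaperones and *Xbp1*. Of 11 plasma cell and B cell markers 7 were tested, while *Mzb1*, *Cd79a*, *Tnfrsf17* and *Irf4* did not pass the filter on dim probes, and the summed level of the others was 11.7 to 14.8 in WT and 13.8 to 14.8 in KO. Most of that sum was that of *Sdc1*, whose log2 level was 3.31 to 3.71 in WT and 3.63 to 3.74 in KO. The highest level of any other tested marker was -0.34, that of *Cd79b* in WT replicate 2. None of these markers was called, *Prdm1* having a difference of -0.40 and *Sdc1* one of 0.14. Of 12 pancreatic acinar markers 6 passed the filter, with sums of 44.0 to 56.7 in WT and 28.6 to 44.2 in KO and none called. Most of that sum was that of *Cela1* (32.4 to 45.4 in WT and 18.4 to 32.3 in KO), whose difference was -0.54 (limma adjusted p = 0.292), while *Cel* and *Cela2a* had differences of 0.45 and 0.33. Of the 10 Kupffer cell and macrophage markers *Marco*, a scavenger receptor, was called lower in KO (-1.22, limma adjusted p = 0.098). The *Marco* call was lost without KO replicate 2 or WT replicate 3 (limma adjusted p = 0.213 and 0.210). It was also lost with no filter on dim probes (limma adjusted p = 0.233). The summed levels of that list were 99.3 to 164 in WT and 84.5 to 141 in KO. No stellate cell, sinusoidal endothelial or cholangiocyte marker was called. The 11 stellate cell markers summed to 165 to 197 in WT and 161 to 179 in KO, with differences of -0.95 for *Col1a1*, -0.57 for *Col3a1* and 0.50 for *Lrat*. The 9 sinusoidal endothelial markers summed to 103 to 106 in WT and 94.4 to 110 in KO (*Lyve1* -0.52, *Dnase1l3* 0.07 and *Kdr* 0.07). Of 8 cholangiocyte markers 6 were tested, *Krt7* and *Epcam* not passing the filter, and the sums were 20.1 to 34.2 in WT and 25.6 to 28.3 in KO (*Sox9* -0.64 and *Krt19* 0.17). The part of other cell types in the values of the 10 genes was not tested.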

How the data were processed

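Liver RNA of 4 *Agpat3* WT and 4 KO mice was measured on one-color arrays. The authors deposited scanner output of Feature Extraction 10.7.1.1, whose processed signal is a background-corrected linear intensity with flags for spots well above background, and a table of log2 values scaled to the 75th percentile of each array. From the intensity, control and outlier spots were left out, log2 values were set relative to each array's 75th percentile, spots of a probe were averaged, and probes that 1 genotype showed well above background on each of its 4 arrays were tested (limma 3.58.1, R 4.3.3, two-sided, Benjamini-Hochberg over 29067 probes). The script was tested on simulated data. Symbols came from RefSeq transcripts. The scanner output names another mouse build than the GRCm38.p6 promoters, so no probe coordinates are given. A gene was read from its brightest tested probe, and exact permutation tests used all 70 assignments of 4 and 4 mice (smallest p 0.0286) or all 40320 pairings. Thresholds (fold 1.5, adjusted p 0.2) are those of the volcano plot in the study, which does not say whether its p was adjusted. The number of arrays and the signal over background limit the precision.

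The 10 genes and all lists were chosen with earlier results of these data known. By rule, the text names the 10 genes, *Agpat3*, called list genes and otherwise the 3 largest differences of a list, and the 5 genes most like *Hspa5*. *Atf4*, *Vldlr*, *Chac1*, *Cyp4a14*, *Igfbp1*, *Pdk4* and names marked in the text were added after their values were seen. Some genes that the rule names are not reported here. Each mouse is a separate animal. Alternatives covered scaling, background correction (normexp on median spot signals, offset 50), filters, tests, thresholds, a replicate block and leaving out each mouse.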

Additional observations from a re-analysis of the deposited data

Results flagged for a closer look

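*G6pc* in KO replicate 3 stood at 5.69, apart from the other 3 KO livers, which lay between 7.30 and 7.52. Such a gap was looked for in 44 groups of 4 livers, those of the 10 genes and of 12 others named in the text, and was met once, in none of the 20 groups of the 10 genes. Chance gives about 1 in 20 groups.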

How the results depend on the processing

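None of the 10 genes was called under any alternative but 2: 1 gene (*Dnajb9*) without WT replicate 4 (0 to 1 when each mouse was left out) and 1 at an unadjusted p under 0.2, again *Dnajb9*. Of 194 alternative values of their differences 184 kept direction and side of the threshold, 1 newly passed and 9 turned sign, all of small size. Alternatives that changed only the filter, the variance model, the test or the block repeated the main differences exactly. For these the direction could not turn, and only the side of the threshold could change. *Hsp90b1* was -0.035 under median centring and -0.11 to 0.12 when each mouse was left out, *Hspa5* -0.32 to 0.017, *Sdf2l1* -0.30 to 0.10 and *Ern1* -0.14 to 0.085. Of other genes named, *Manf* was -0.030 under median centring and -0.24 to 0.24, *Creld2* -0.52 to 0.12 and *Angptl4* -0.50 to 0.21 when each mouse was left out.

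Probes called higher and lower in KO numbered 273 and 211. They were 122 and 131 with no filter on dim probes, 165 and 104 with an unpaired t test on all tested probes, 82 and 35 at an adjusted p under 0.05, 557 and 645 with no minimum fold change, and 534 and 451 at an unadjusted p under 0.2. Lower calls were 66 with normexp and 125 with the filter on all arrays. When each mouse was left out the counts were 152 to 334 higher and 105 to 311 lower, with higher calls at 152 without WT replicate 3 and lower calls at 109, 110 and 105 without KO replicate 2, WT replicate 2 and WT replicate 3. Of the 109 ER list genes 2 were called, and the count was 1 with the percentile over detected probes, no filter or normexp, 0 at an adjusted p under 0.05, 6 at an unadjusted p under 0.2 and 1 to 5 when each mouse was left out (1 without KO replicate 1, KO replicate 4, WT replicate 2 or WT replicate 3 and 5 without WT replicate 4). The correlation with *Hspa5* passed for 4 genes on deviations from the genotype means, for 1 without the 2 mice and for 1 to 3 when each mouse was left out. The first of these counts is approximate, since its permutation did not allow for the centring. The cause of these changes was not tested.

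WT and KO mice share replicate numbers, but the deviations of same-numbered mice correlated at 0.33, -0.11, 0.10 and 0.32, and 2 of the 4 numbers were best matched by themselves. Since not every correlation was above 0.1, the numbers were not taken as pairs. With the replicate number as a block, 325 probes were called higher and 264 lower, and 0 of the 10 genes and 2 of the ER list genes were called. Every number occurs in both genotypes, so the block leaves the differences of the 10 genes unchanged by design. Only their SE and p could move. The limma unadjusted and adjusted p under the block were 0.025 and 0.254 for *Xbp1*, 0.019 and 0.234 for *Dnajb9* and 0.079 and 0.378 for *Herpud1*. What 8 arrays limit is most visible in *Dnajb9*, whose interval spans -1.30 to 0.10.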
